A study of Camellia japonica and Camellia azalea with 81 samples.

Results

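Flower buds of Camellia japonica, an evergreen shrub of the tea family, were compared between the labels FB-3 and FB-2. The comparison rests on 6 of the 81 RNA-seq libraries of the series, 3 per label, grouped by their labels. A further 2 libraries labelled FB-1 helped to estimate the spread and to choose the IDs tested, and do not enter the difference. The third, FB-1 replicate 1, was left out for its leaf-like values. The rest of the series is young leaves of C. japonica and of Camellia azalea, with 36 libraries each, sampled in each of 12 months. The labels name no treatment for any group, and no strain, age, stage or sampling date for the buds. The labels do not give the plants behind the libraries of a label, and the p-values therefore cover only the spread among these libraries, which may be technical.

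In C. japonica, flower buds form on the new shoots during the warm season and stay closed for months before they open in the cold season or early spring. Sepals, petals, stamens and carpels arise and enlarge inside the closed bud, and genes of organ growth, pigment, pollen and cold responses are known to change over that time. The tables identify genes by codes without names (IDs), so no pathway can be assigned to them, and only a pair of IDs is named in each direction. Whole buds were sequenced, so fewer cells of a type and less RNA per cell cannot be told apart.

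Levels are TPM (transcript abundances as shares of a fixed total per library), which keep no record of sequencing depth, so depth is unknown. The FB-2 libraries held 27404 to 27805 IDs at 1 TPM or more, and the FB-3 libraries 26014 to 27316. The 10 most abundant IDs took 5.66% to 7.68% of TPM in FB-2 and 4.65% to 5.41% in FB-3. Both measures were separated between the labels, at the smallest p that 3 against 3 libraries allow (two-sided exact permutation p = 0.1, adjusted p = 0.133 over 4 library measures).

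The 3 libraries labelled FB-3 were not alike. FB-3 replicate 2 correlated best, across IDs, with FB-2 replicate 2 (r = 0.958), and its mean r was 0.943 with the FB-2 libraries and 0.925 with the other FB-3 libraries. FB-3 replicate 3 stood at the other end, with a mean r of 0.854 with FB-2 and 0.919 with FB-3. FB-3 replicate 1 had 0.916 and 0.949. Each FB-2 library had its highest r with another FB-2 library (0.966 for replicates 1 and 2, 0.934 for replicate 3 with replicate 1). FB-2 replicates 1 and 2 had a higher r with FB-3 replicate 2 (0.958 each) than with FB-2 replicate 3 (0.934 and 0.922). FB-1 replicate 1 correlated best with a leaf library (r = 0.981 with the library labelled Dec leaf 2) and was left out of the model by the rule of the comparison. FB-1 replicate 2 correlated best with the library labelled Feb leaf 1 (r = 0.935), a leaf library in which leaf-enriched IDs were about as low as in buds. FB-3 replicate 2 was the FB-3 library nearest the FB-2 mean for 46.1% of the IDs tested, and FB-3 replicate 3 the farthest for 56.7%.

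**Figure D1:**
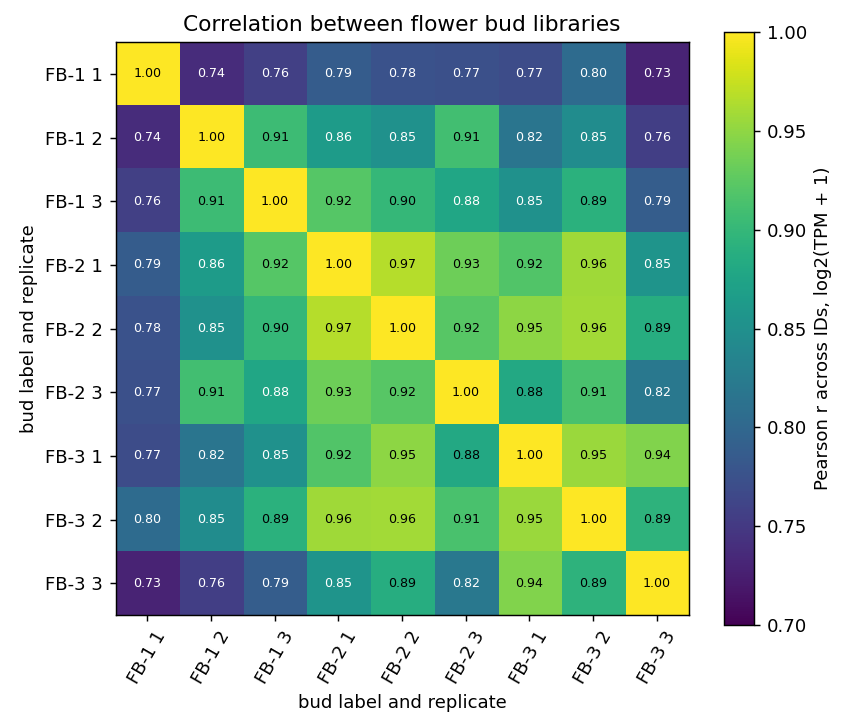
Pearson correlation across all IDs, on log2(TPM + 1), between the 9 flower bud libraries, named by label and replicate on both axes. FB-3 replicate 2 sits at 0.91 to 0.96 with the FB-2 libraries, while FB-3 replicate 3 sits at 0.82 to 0.89 with them, and FB-1 replicate 1 at 0.73 to 0.80 with the other bud libraries.

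A split inside FB-3 was visible in single IDs. In 187 IDs, FB-3 replicates 1 and 3 both lay at least 3 away from the FB-2 mean on the log2 scale (at least 8-fold on TPM + 1) in the same direction, while FB-3 replicate 2 lay within 1 of it. In 122 of them the other FB-3 libraries were higher than FB-2, and in 65 lower. The same pattern with FB-3 replicate 1 as the library near FB-2 was found in 2 IDs, and with FB-3 replicate 3 in 4. None of these IDs was called by the test below, and the pattern was defined after the values were seen.

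Between FB-2 and FB-3, 380 of 29158 IDs were called (1.3%), 97 of them higher in FB-3 (0.333%) and 283 lower (0.971%). A call was an adjusted p below 0.05 from limma on log2(TPM + 1), with a log2 difference of at least 1 in either direction. Limma is a linear model that draws the spread of each ID partly toward that of other IDs. At an unadjusted p below 0.05, 6527 IDs passed (22.4%). The higher IDs had a median log2 difference of 1.58 and the lower IDs of -1.91, against -0.10 over all IDs tested. Differences of 2 or more on the log2 scale made up 32 of the 97 higher IDs and 131 of the 283 lower ones, against 3.14% of all IDs tested. The adjusted p of the calls lay close to the threshold, with a smallest value of 0.00972 and medians of 0.0390 for the higher and 0.0378 for the lower IDs (limma).

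**Figure D2:**
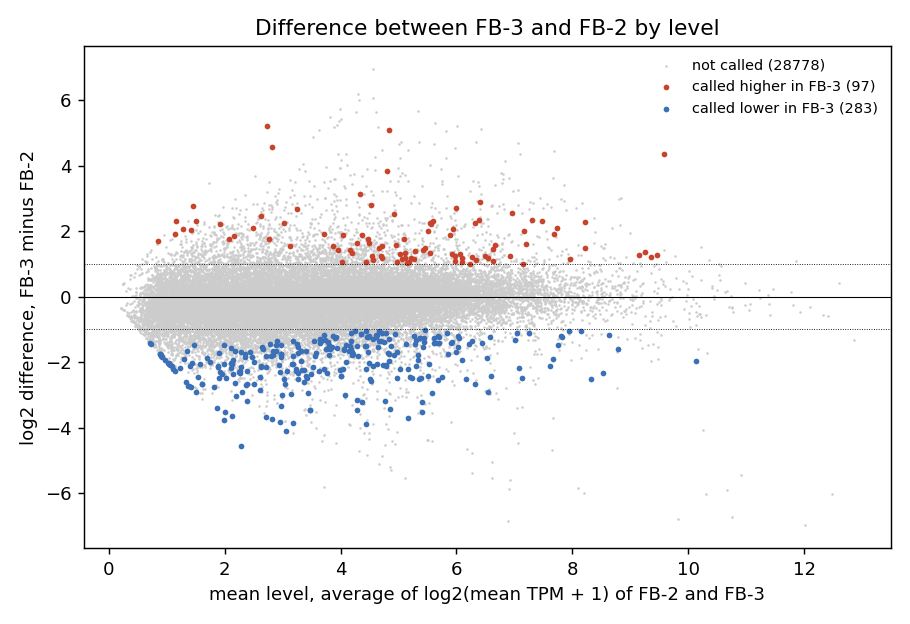
Log2 difference of FB-3 minus FB-2 (vertical axis) against the mean level of each of the 29158 IDs tested (horizontal axis, average of log2(mean TPM + 1) of both labels), with the 97 IDs called higher in red, the 283 called lower in blue, the rest in grey, and dotted lines at -1 and 1. Most IDs with the widest differences are grey: 31 of 253 IDs with a difference of 3 or more were called.

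Most IDs with the widest differences were not called. Of 253 IDs with a difference of at least 3 on the log2 scale, 31 were called. In the 222 that were not, the median SD of log2 values was 2.55 over the FB-3 libraries and 1.12 over the FB-2 libraries, against 0.68 and 0.53 in the 31 called. The test divides by this spread, so the contrast describes the calls and is no separate result. FB-3 replicate 2 was the FB-3 library nearest to FB-2 in 203 of these 222 (91.4%). The share was 46.1% over all IDs tested, 38.1% of the higher calls and 60.8% of the lower calls. A wide spread over FB-3 works against a call, so an FB-3 library near FB-2 is partly built into this selection. Over all IDs tested the median SD was 0.36 in FB-3 and 0.29 in FB-2.

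The number of calls turned on single libraries. Limma called 955 IDs without FB-3 replicate 2, of which 304 were higher and 651 lower, and 147 without FB-3 replicate 3. No ID was called without FB-2 replicate 1, 2 or 3 or without FB-3 replicate 1, where 4509, 5711, 4575 and 4895 IDs passed an unadjusted p below 0.05. Leaving out FB-1 replicate 2 or 3, which do not enter the difference, gave 101 and 104 calls. The 6 libraries of FB-2 and FB-3 on their own gave 5 calls, with 6494 IDs at an unadjusted p below 0.05. The fit with all 9 bud libraries gave 0, with 3001.

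**Figure D3:**
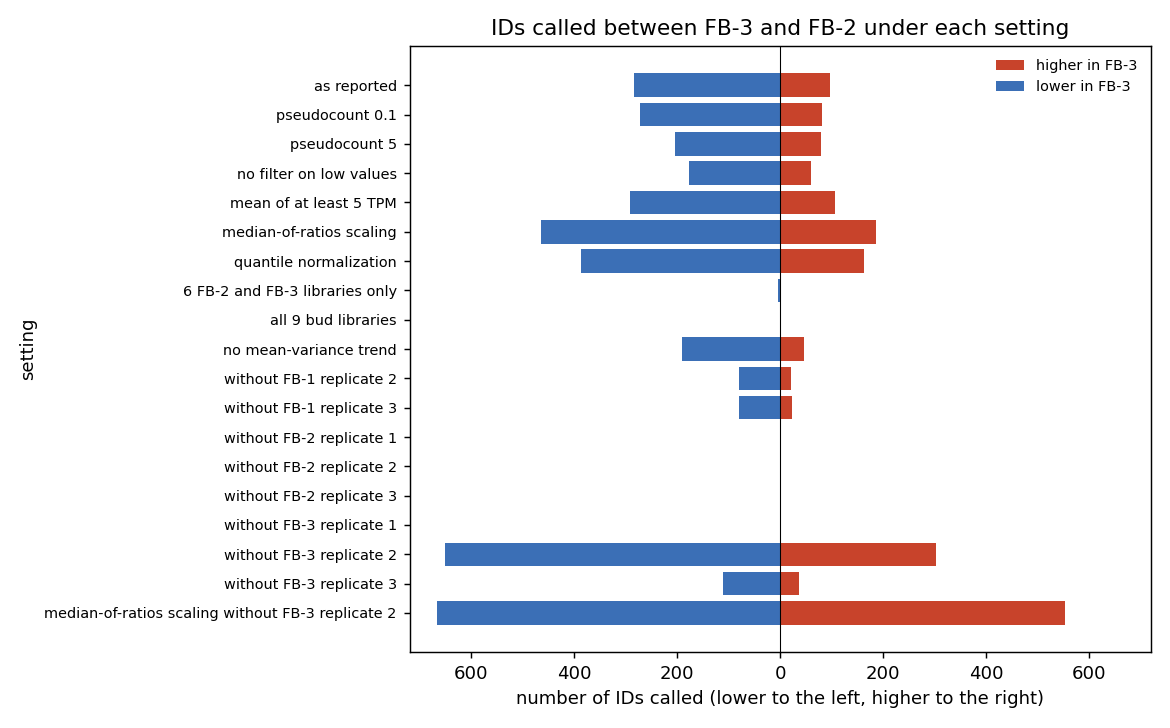
Number of IDs called between FB-3 and FB-2 by limma (horizontal axis, lower IDs to the left in blue, higher IDs to the right in red) for the reported fit and each alternative (vertical axis). The longest bars, with 666 lower and 553 higher IDs, are those of median-of-ratios scaling without FB-3 replicate 2, chosen after seeing the data. Without FB-3 replicate 2 and without scaling the bars reach 651 lower and 304 higher IDs. No bar is seen in the fits without FB-2 replicate 1, 2 or 3, without FB-3 replicate 1 and with all 9 bud libraries.

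Separation of the libraries does not need the model. All 3 FB-3 libraries lay above every FB-2 library for 3415 IDs (11.7%) and below every FB-2 library for 5785 (19.8%), together 31.6% of those tested. All 97 higher and all 283 lower IDs were separated in this way. With a log2 difference of at least 1 as well, 835 IDs were separated with FB-3 above and 2425 with FB-3 below, and 11.6% and 11.7% of these were called. TPM are shares of a fixed total, and median-of-ratios scaling moved the median difference of all IDs from -0.10 to 0.01. It gave 186 higher and 464 lower IDs, and 361 of the 380 calls were shared.

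FB-3 replicates 2 and 3 can each be set beside IDs called without them. For the 955 IDs called without FB-3 replicate 2, the higher ones had a median level of 3.43 in FB-2 and 6.02 in FB-3 replicates 1 and 3 on the log2(TPM + 1) scale, and FB-3 replicate 2 lay between at 4.27. For the lower ones the medians were 4.78 in FB-2, 3.83 in FB-3 replicate 2 and 2.68 in the other FB-3 libraries. FB-3 replicate 2 was closer to the other FB-3 libraries in 53.5% of these IDs, against 47.3% of all IDs tested. FB-3 replicate 3 lay with its label: for the 147 IDs called without it, the higher ones were at 5.08 in FB-2, 6.62 in FB-3 replicates 1 and 2 and 6.62 in FB-3 replicate 3, and the lower ones at 5.35, 3.49 and 2.92. It was closer to the other FB-3 libraries in 87.1% of these IDs, against 65.7% of all IDs tested.

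EVM0034412 had the largest gain in TPM among the called and separated IDs. It was at 437, 119.9 and 41.1 TPM in FB-2 replicates 1, 2 and 3 and at 1927, 1964 and 4942 TPM in FB-3 replicates 1, 2 and 3. The labels did not overlap, although the FB-2 libraries themselves spread widely. Its mean rose from 199 ± 209.8 to 2944 ± 1729.9 TPM (mean ± SD, n = 3 each). On the log2 scale it rose by 4.34 ± 0.79 (± SE, adjusted p = 0.0482 from limma). By mean TPM it moved from rank 617 in FB-2 to rank 12 in FB-3. In FB-1 replicates 2 and 3 it was at 0.605 and 0.809 TPM, so its level stepped up from label to label. Its call was lost in each of the 8 fits that left out 1 library, where the adjusted p (limma) ran from 0.0515 without FB-3 replicate 2 to 0.147 without FB-3 replicate 1 and the log2 difference from 3.53 to 5.22.

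EVM0033989 was listed at 0 TPM in all 3 FB-2 libraries and in FB-1 replicates 2 and 3. In FB-3 it was at 20.1, 78.2 and 29.4 TPM in replicates 1, 2 and 3 (limma adjusted p = 0.0194 on log2(TPM + 1)). It was chosen for the widest fitted difference among higher IDs, which has no fold because FB-2 was at 0. In this ID FB-3 replicate 2 was the highest library. The leaf-like FB-1 replicate 1 held 378 TPM. The call was lost in 4 of the 8 fits that left out 1 library, with an adjusted p (limma) up to 0.0762 without FB-2 replicate 1.

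EVM0005707 had the opposite pattern. It was at 19.2, 21.6 and 27.1 TPM in FB-2 and listed at 0 TPM in all 3 FB-3 libraries (limma adjusted p = 0.0194). FB-1 replicates 2 and 3 were higher still, at 139 and 38.1 TPM. It was listed at 0 in 29 of 36 C. japonica leaf libraries. The library labelled Feb leaf 1 was highest among leaves with 47.7 TPM, and no other leaf library passed 4.95 TPM. In C. azalea leaves 30 of 36 libraries were at 0, and the highest was at 1.13 TPM. Its call was lost in 4 of the 8 fits that left out 1 library (limma adjusted p up to 0.109 without FB-3 replicate 1).

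EVM0014727 had the largest loss in TPM among the called and separated IDs. It was at 2113, 2118 and 2205 TPM in FB-2, a narrow range, and at 695, 697 and 346 TPM in FB-3 replicates 1, 2 and 3. Its mean fell from 2145 ± 51.5 to 579 ± 202 TPM (mean ± SD, n = 3 each) and its rank from 27 to 148. The difference was -1.96 ± 0.32 on the log2 scale (± SE, adjusted p = 0.0410 from limma). FB-1 replicates 2 and 3 were at 1840 and 2566 TPM, on both sides of the FB-2 range. Its call was lost in 7 of the 8 fits that left out 1 library, with adjusted p (limma) up to 0.162 without FB-2 replicate 1, and the log2 difference stayed between -2.13 and -1.62.

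**Figure D4:**
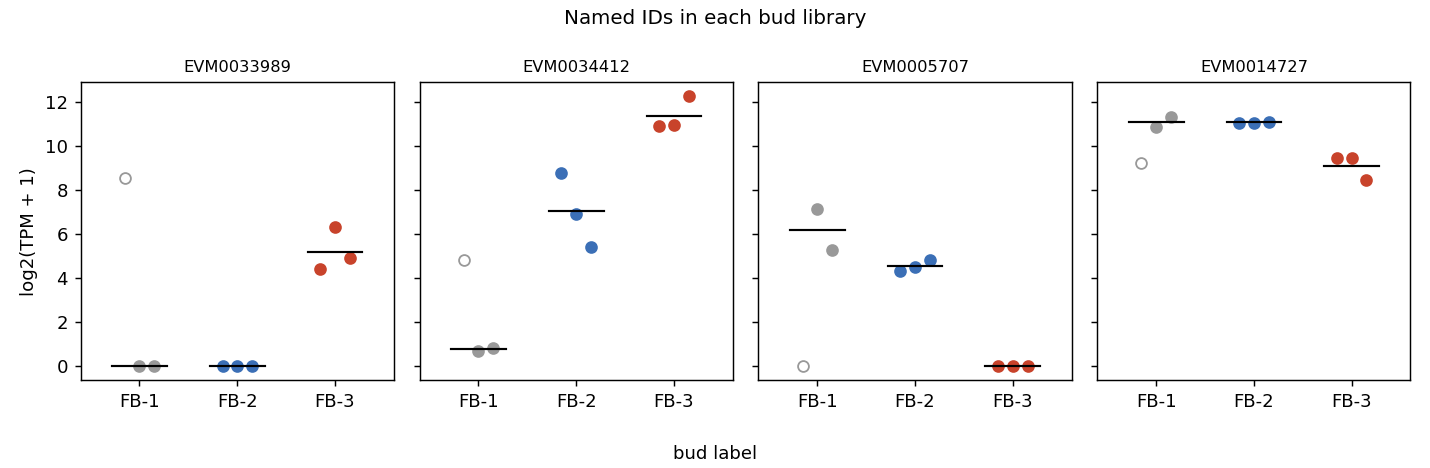
Level of the 4 named IDs, as log2(TPM + 1) on the vertical axis, in each library of FB-1, FB-2 and FB-3 (horizontal axis); points are libraries in the order of replicate, bars are means, and the open point is FB-1 replicate 1, which is left out of the mean. FB-3 lies above FB-2 in EVM0033989 and EVM0034412 and below it in EVM0005707 and EVM0014727, without overlap.

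The called IDs made up a visible share of the transcripts. The 97 higher IDs summed to 4472 to 4823 TPM in the FB-2 libraries and to 14700.3, 15456 and 18998 TPM in FB-3 replicates 1, 2 and 3. The 283 lower IDs summed to 18190 to 20174 TPM in FB-2 and to 5497, 6299 and 4193 TPM in FB-3. The IDs were chosen for this difference, so the sums describe their weight only. In the higher of the 2 labels, 36 of the 97 higher IDs (37.1%) and 38 of the 283 lower ones (13.4%) reached a mean of 100 TPM, against 7.33% of all IDs tested.

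A few low IDs were listed at 0 in one label only. Of 41982 IDs, 11 were listed at 0 TPM in all FB-2 libraries and at 1 TPM or more in every FB-3 library, and 4 of these were called. In the other direction 61 were listed at 0 in all FB-3 libraries and at 1 TPM or more in every FB-2 library, and 23 were called. Over all IDs tested 0.333% were called higher and 0.971% lower. The pattern itself requires separated labels and no spread in the label at 0, so these counts of calls are no separate result. The means of both groups in the label where they were present were low, with medians of 2.74 and 2.98 TPM. EVM0033989 and EVM0005707 had the highest means of these groups. Of the 11, 4 were also at 0 in FB-1 replicates 2 and 3, and of the 61, 7 were.

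In FB-1, the called IDs mostly lay beyond FB-2 as seen from FB-3. Of the 97 higher IDs, 63 (64.9%) were lower in FB-1 replicates 2 and 3 than in both other labels, 32 lay between and 2 above. Of the 283 lower IDs, 186 (65.7%) were higher in FB-1 than in both other labels, 92 between and 5 below. FB-2 enters both sides of this ordering. Over all IDs tested, 48.6% of those with a positive difference lay below both labels in FB-1, and 64.2% of those with a negative difference lay above both, the latter close to the share of the lower IDs. The median level of the higher IDs was 4.09 in FB-1, 4.44 in FB-2 and 5.93 in FB-3 on the log2(TPM + 1) scale, and that of the lower IDs 5.07, 4.70 and 2.85.

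Most of the called IDs were also present in leaves. A median below 1 TPM over the 36 C. japonica leaf libraries was found for 10 of the 97 higher IDs (10.3%) and 53 of the 283 lower ones (18.7%), against 21.6% of all IDs tested. In the C. azalea table, which was normalized separately, 9 of 97 (9.28%) and 58 of 282 (20.6%) lay below 1 TPM, against 27.03%.

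The leaf libraries, which the bud comparison did not use, held a seasonal pattern in the same IDs. In C. japonica leaves, 43 of the 93 higher IDs tested there (46.2%) were called winter-high by limma, and 1 summer-high. Over all IDs tested in those leaves, 5.89% were winter-high and 2.75% summer-high. Of 263 lower IDs, 63 (23.95%) were summer-high and 2 winter-high. Winter was the mean of Dec, Jan and Feb and summer that of Jun, Jul and Aug, with the same call rule as in buds. The median winter minus summer difference was 0.98 on the log2 scale for the higher IDs and -0.46 for the lower IDs, against 0.25 for all.

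In C. azalea leaves, from another species and a separate table, 51 of 91 higher IDs (56.0%) were winter-high and 0 summer-high (limma), against 6.25% and 3.15% of all IDs tested. Of 253 lower IDs, 53 (20.9%) were summer-high and 17 (6.72%) winter-high, the latter near the share of all IDs. The winter-high share of the higher IDs was 32.2% with the calls made without FB-3 replicate 2. The summer-high share of the lower IDs was 33.3% without FB-1 replicate 2 and 32.9% without FB-1 replicate 3. In 4 of the 8 fits that left out 1 library no called IDs were left to look up. The median winter minus summer difference was 1.09 for the higher and -0.26 for the lower IDs, against 0.26 for all. Winter-high in both species were 32 of 90 higher IDs (35.6%) and 0 of 247 lower ones, against 2.24% of the IDs tested in both. Summer-high in both were 35 of the 247 lower IDs (14.2%) and 0 of the 90 higher ones, against 0.899%.

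**Figure D5:**
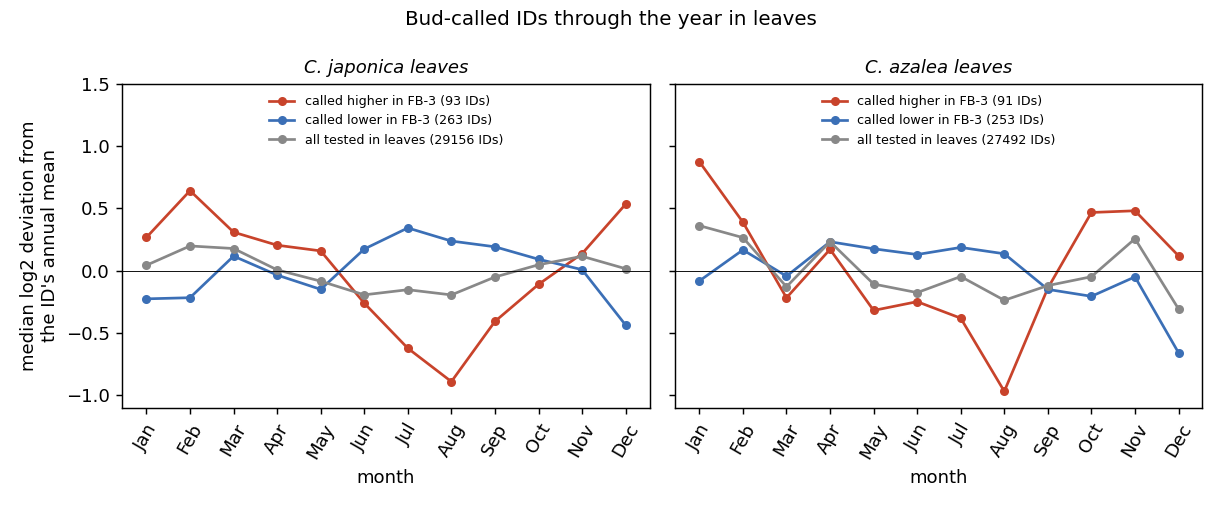
Median deviation of each month from an ID's annual mean in leaves (vertical axis, log2 of TPM + 1) through the 12 months (horizontal axis) for IDs called higher (red) or lower (blue) in FB-3 and for all IDs tested (grey), in C. japonica on the left and C. azalea on the right. The red line is lowest in Aug in both species, at -0.89 and -0.97. It is highest in Feb in C. japonica (0.64) and in Jan in C. azalea (0.87). The blue line is lowest in Dec in both. The grey line is lowest in Aug in C. japonica (-0.19) and in Dec in C. azalea (-0.31). A course without Feb leaf 1 and Jan leaf 3 of C. japonica or Jan 1 of C. azalea is not shown.

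By month, the higher IDs were highest in C. japonica leaves in Feb and Dec, with median deviations from the annual mean of 0.64 and 0.53, and in C. azalea leaves in Jan, Nov and Oct, with 0.87, 0.48 and 0.47. In both they were lowest in Aug, at -0.89 and -0.97. The lowest month of all IDs together was Aug in C. japonica (-0.19) and Dec in C. azalea (-0.31). All IDs together were highest in Feb in C. japonica (0.20) and in Jan in C. azalea (0.36), and the difference in course between the species was not tested. The lower IDs peaked in Jul in C. japonica (0.34) and in Apr in C. azalea (0.23), where all IDs together also stood at 0.23. The course is not given without Feb leaf 1 and Jan leaf 3 of C. japonica or Jan 1 of C. azalea. How far these libraries move the Feb and Jan values was not tested.

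The pattern was also seen among abundant IDs and under other settings of the leaf fits. Among IDs whose mean reached 10 TPM in FB-2 or FB-3, 47.7% of the higher IDs were winter-high in C. japonica leaves, against 8.04% of all such IDs, and 56.3% against 8.29% in C. azalea leaves. For Jan leaf 3 the closest library was Aug leaf 2 (r = 0.956), and for Feb leaf 1 it was FB-1 replicate 2. Without both of these leaf libraries, 55 of 93 higher IDs were winter-high in C. japonica and 84 of 263 lower IDs summer-high, against 8.35% and 4.21% of all. In C. azalea, without Jan 1, whose closest library was Apr 1 (r = 0.968), 53 of 91 higher IDs were winter-high and 63 of 253 lower IDs summer-high, against 7.27% and 4.13%. After median-of-ratios scaling of the leaf libraries the median difference of all IDs moved from 0.25 to 0.01 in C. japonica and from 0.26 to 0.02 in C. azalea. Then 30 of 93 and 31 of 91 higher IDs were winter-high (32.3% and 34.1%), against 2.41% and 3.08% of all, and 92 of 263 and 74 of 253 lower IDs summer-high, against 4.92% and 5.24%. Separated IDs with a difference of at least 1 that were not called had smaller shares: 153 of 636 with FB-3 above (24.1%) were winter-high in C. japonica leaves and 127 of 600 (21.2%) in C. azalea leaves.

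The seasonal IDs shared by both species were also looked up in the buds. These lists came from the leaf fits as deposited, which kept Feb leaf 1 and Jan leaf 3 of C. japonica and Jan 1 of C. azalea. The lookup is not given for the other leaf settings. Of the 571 IDs winter-high in leaves of both species, 568 were tested in buds. Their median level was 4.82, 4.89 and 4.998 in the FB-2 libraries and 5.31, 5.45 and 5.09 in FB-3 replicates 1, 2 and 3, on the log2(TPM + 1) scale. All 3 FB-3 medians lay above the FB-2 medians, and 419 of the 568 IDs (73.8%) had a positive difference, against 42.9% of all IDs tested. The 202 tested IDs that were summer-high in both had medians of 3.52, 3.76 and 3.65 in FB-2 and of 2.31, 2.66 and 2.21 in FB-3, with no overlap between the labels. The median over all IDs tested was 3.62 to 3.69 in FB-2 and 3.29 to 3.61 in FB-3.

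Within the winter-high list of both species, 210 of 568 IDs (36.97%) had every FB-3 library above every FB-2 library and 29 (5.11%) the reverse, against 11.7% and 19.8% of all IDs tested. In the summer-high list 6 of 202 (2.97%) had FB-3 above and 105 (52.0%) FB-3 below. The median FB-3 minus FB-2 difference was 0.39 for the winter-high and -1.13 for the summer-high list, against -0.10 for all. Without FB-3 replicate 2 these medians were 0.30, -1.27 and -0.18, and without FB-3 replicate 3 they were 0.48, -0.95 and -0.01. In the winter-high list FB-3 replicate 3 had a median of 0.19 above the FB-2 mean, against 0.44 and 0.50 in replicates 1 and 2. Over all IDs tested FB-3 replicate 3 was also the lowest, at -0.31, against -0.06 and 0.03 in replicates 1 and 2. The 32 IDs called higher in FB-3 and winter-high in both species were 5.63% of the winter-high list, against 0.333% of all IDs tested. The 35 called lower and summer-high in both were 17.3% of the summer-high list, against 0.971%. These are the same 32 and 35 IDs as counted above from the bud calls, so they add no further overlap.

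The named IDs followed these lists in part. EVM0033989 was winter-high in leaves of C. japonica, by 5.37 ± 1.04 on the log2 scale (± SE, adjusted p = 3.3e-04 from limma), and of C. azalea, by 4.12 ± 0.35 (limma adjusted p = 2.8e-10). In C. japonica its monthly mean ran from 0.150 TPM in Jun to 422 TPM in Jan, a mean carried by the library labelled Jan leaf 1 at 1202 TPM, without which it was 32.03 TPM. In C. azalea it ran from 3.02 TPM in Jun to 669.9 TPM in Apr, which lies outside the winter months. EVM0034412 was winter-high in C. japonica leaves by 2.50 ± 0.74 (limma adjusted p = 0.0116) and not called in C. azalea, at -0.89 ± 0.43 (limma adjusted p = 0.110). That difference between the species was not tested. Its highest leaf value, 212 TPM, lay below every FB-3 library. EVM0014727 was summer-high in C. azalea leaves (-1.23 ± 0.18, limma adjusted p = 6.5e-06) and not called in C. japonica leaves (-0.78 ± 0.37, limma adjusted p = 0.119). EVM0005707 was not called in C. japonica leaves (0.21 ± 0.49, limma adjusted p = 0.791) and was too low to be tested in C. azalea.

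Leaf transcripts in the buds were followed with 133 leaf-enriched IDs, with a median of at least 50 TPM over the C. japonica leaf libraries and a mean of at most 5 TPM in FB-1 replicates 2 and 3. They summed to 678 to 759 TPM in the FB-2 libraries and to 704, 868 and 801 TPM in FB-3 replicates 1, 2 and 3. The labels overlapped (exact permutation p = 0.3, two-sided, n = 3 each). In leaves the sum had a median of 18550 TPM, with 596 TPM in the library labelled Feb leaf 1 and at least 12363 TPM in the others. Of 117 of these IDs tested in buds, 1 was called higher and 1 lower, against 0.333% and 0.971% of all IDs tested. Their median difference was -0.48 on the log2 scale, against -0.10 for all. The sum over 407 IDs of at least 20 TPM in leaves was 2315 to 2359 TPM in FB-2 and 2787 to 3720 in FB-3. Here the labels did not overlap (exact permutation p = 0.1, the smallest possible). Of 361 of these IDs tested in buds, 5 were called higher and 3 lower, beside the same shares of all IDs. The median difference of these 361 IDs was -0.28 on the log2 scale, against -0.10 for all, although the sum over the list was higher in FB-3. The part of leaf transcripts in the seasonal pattern was not tested.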

How the data were processed

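The authors deposited TPM in a table for each species, and each column sums to 1000000 over 41982 IDs. Per the submitters' processing notes, HISAT2 2.1.0 and StringTie 1.3.6 were used. Not given in the sources used here were their settings, the build and the annotation. Columns were tied to libraries by the code in each title. Bud replicate numbers follow the order of deposit and pair nothing.

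FB-3 was set against FB-2 with limma 3.58.1 in R 4.3.3 on log2(TPM + 1), using the mean-variance trend, in 8 libraries (FB-2, FB-3 and FB-1 replicates 2 and 3), on IDs of at least 1 TPM in at least 3 of them. Two-sided p-values were adjusted by Benjamini-Hochberg over every ID tested. Fits without a library kept the same IDs. Differences on this scale understate changes of low IDs. Leaf seasons were fitted in each table on 12 month means, an analysis added after the data were seen. Named IDs were, in each direction, the called and separated ID of at least 5 TPM with the widest log2 difference and the one with the widest TPM difference. The comparison and lists were chosen with earlier results of these data known. Marker lists by gene symbol matched no ID and were not tested.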

Additional observations from a re-analysis of the deposited data

How the results depend on the processing

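No paired analysis was possible because the labels of the buds carry no replicate numbers. The count of 380 calls (97 higher, 283 lower) became 355 (82 and 273) with a pseudocount of 0.1, 284 (80 and 204) with a pseudocount of 5, and 397 (106 and 291) on IDs with a mean of at least 5 TPM. It became 236 (60 and 176) without a filter, 238 (47 and 191) without the trend, 650 (186 and 464) with median-of-ratios scaling and 550 (164 and 386) with quantile normalization. It was 5 (2 and 3) with the 6 libraries of FB-2 and FB-3 only and 0 (0 and 0) with all 9 bud libraries. Leaving out 1 library gave 0 to 955 calls, 0 to 304 higher and 0 to 651 lower. Median-of-ratios scaling without FB-3 replicate 2, chosen after seeing the data, gave 1219 (553 and 666). The median difference of all IDs, -0.10, turned to 0.010 with median-of-ratios scaling, 0.0092 with quantile normalization and 0.0039 with median-of-ratios scaling without FB-3 replicate 2. The direction of the 4 named IDs held in each of the 18 alternatives. They were chosen for separated labels and the widest differences, so leaving out 1 library could not reverse their direction. The calls of these IDs were lost in 5 (EVM0005707), 6 (EVM0033989), 10 (EVM0014727) and 13 (EVM0034412) of the 18 alternatives. With all 9 bud libraries their adjusted p (limma) lay between 0.339 and 0.445. IDs at 0 in one label numbered 20 to 86 (FB-2) and 80 to 161 (FB-3) when 1 library was left out, which can only keep or raise these counts.

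The share of higher IDs that were winter-high was 46.2% in C. japonica leaves and 56.0% in C. azalea leaves, and that of lower IDs that were summer-high 23.95% and 20.9%. With median-of-ratios scaling of the leaves these were 32.3%, 34.1%, 34.98% and 29.2%. Without the libraries labelled Feb leaf 1 and Jan leaf 3 the C. japonica shares were 59.1% and 31.9%. With the bud calls after median-of-ratios scaling the C. azalea shares were 43.8% and 15.96%, and after quantile normalization the winter-high share was 44%. With median-of-ratios scaling without FB-3 replicate 2 the shares were 29.1% and 26.5% for winter-high, and 16.95% and 13.6% for summer-high. Over the bud fits without 1 library that left at least 20 calls, the shares ran from 32.7% to 67.6% and from 32.2% to 59.5% for winter-high, and from 16.8% to 30.7% and from 14.3% to 33.3% for summer-high. The causes were not tested. Depth is unknown, so no counting limit can be given for low values.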
